A study of Mus musculus with 16 samples.

Results

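Neurons of the preoptic area that act on body temperature are marked by a small set of genes, and 6 of them are described here across the cell types, neuron types and treatment groups of the hypothalamus and preoptic area of the mouse: *Adcyap1*, *Bdnf*, *Ptger3*, *Nos1*, *Trpm2* and *Nxph4*. They were taken by symbol, 6 of the 28683 genes in the count tables. Droplet-based single-cell RNA sequencing (Drop-seq) was performed on 16 female mice of a mixed CD-1;129P2 background, with 1 library per mouse. The mice were 8 to 10 weeks old at the start. They received 28 daily subcutaneous injections of 0.1 mg/kg tamoxifen, a ligand of estrogen receptors, or of vehicle. The vehicle was corn oil with ethanol and is called oil here. Wild-type mice made up 3 oil and 5 tamoxifen libraries, and Esr1cKO mice made up 4 oil and 4 tamoxifen libraries. Esr1cKO mice carried a floxed *Esr1*, the gene of estrogen receptor alpha, and a Cre transgene driven by *Nkx2-1*, so that the deletion was limited to cells with a history of *Nkx2-1* expression. Wild-type mice were littermates without Cre. The preoptic area was not separated from the rest of the block of tissue, so a neuron with a UMI (a unique molecular identifier, which marks 1 captured RNA molecule) of these genes was not necessarily preoptic.

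The preoptic area compares brain temperature with signals from the skin and lowers heat production when warmed. *Adcyap1* encodes the neuropeptide PACAP and *Bdnf* the neurotrophin BDNF, and preoptic neurons that express both respond to warmth. *Ptger3* encodes the EP3 receptor, through which prostaglandin E2 raises body temperature in fever. *Nos1* encodes the neuronal nitric oxide synthase, and *Trpm2* a cation channel that opens with heat and oxidative stress. *Nxph4* encodes neurexophilin 4, a secreted glycoprotein of a family that binds neurexins at synapses.

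On the GRCm38 assembly, *Adcyap1* lies at chr17:93199017-93206537 and *Nxph4*, on the minus strand, at chr10:127525473-127534559. *Bdnf* spans chr2:109674700-109727007 and shares part of its locus with an antisense gene, Gm45346. *Ptger3* lies at chr3:157566892-157645888, *Nos1* at chr5:117781032-117958840 and *Trpm2*, on the minus strand, at chr10:77907722-77970563. *Nos1* and *Trpm2* also overlap small annotated genes, and reads that could belong to either gene of an overlapping pair cannot be assigned with certainty. All 6 are protein-coding genes, with between 2 exons in *Nxph4* and 34 in the longest form of *Trpm2*.

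*Adcyap1* and *Bdnf* were found together in the same neurons, as described below, and both are known as genes whose transcription follows neuronal activity through cyclic AMP. The 250 bases upstream of their annotated starts (RefSeq, GRCm38.p6, plus strand) are shown, with the core of the cAMP response element, TGACG or its reverse complement CGTCA, in capitals. The *Adcyap1* window is chr17:93198767-93199016, and the *Bdnf* window, 1 of 7 for that gene, is chr2:109692186-109692435.
*Adcyap1*: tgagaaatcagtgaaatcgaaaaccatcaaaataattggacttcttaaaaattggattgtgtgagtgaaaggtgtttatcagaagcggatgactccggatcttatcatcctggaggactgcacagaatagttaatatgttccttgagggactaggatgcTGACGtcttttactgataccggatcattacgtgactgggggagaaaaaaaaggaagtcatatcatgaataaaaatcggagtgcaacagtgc
*Bdnf*: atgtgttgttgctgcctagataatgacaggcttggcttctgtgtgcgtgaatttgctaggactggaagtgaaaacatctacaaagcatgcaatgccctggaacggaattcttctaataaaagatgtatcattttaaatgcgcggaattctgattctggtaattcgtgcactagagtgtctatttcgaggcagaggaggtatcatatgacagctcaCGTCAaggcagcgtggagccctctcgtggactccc
The core stands 91 to 87 bases before this start of *Adcyap1* and 35 to 31 bases before this start of *Bdnf*. The other of the 2 *Adcyap1* windows starts within the first and holds the same core. It was also present in the single windows of *Nos1* (130 to 126 bases before the start) and *Trpm2* (24 to 20 bases before the start), and in none of the other 6 *Bdnf* windows or the *Ptger3* window. Among 32817 windows of the same length upstream of annotated starts, 17.7% held this core on either strand. This is a share of windows and not of genes, and a gene with 7 windows has more places for the core. The full element, TGACGTCA, was present in 1.55% of all windows and the palindromic estrogen response element in 0.064%. Neither was found in a window of *Adcyap1*, *Bdnf*, *Ptger3*, *Nos1* or *Trpm2*, which says only that these letters are not in these windows. *Nxph4* is named only.

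The libraries held 2634253 to 8038158 UMIs in 5403 to 13515 barcodes. After the study's limits on genes and mitochondrial share, 55675 cells remained (1746 to 5568 per library), of which 9136 were neurons (244 to 905 per library). All 10 neuronal markers were raised in the cluster called neurons. Libraries S10 (wild type, oil) and S11 (Esr1cKO, tamoxifen) held no barcode with fewer than 100 genes, unlike the other 14. Of 142084 distinct barcodes, 2832 occurred in more than 1 library, and 334 neurons had a barcode that was kept in more than 1 library. Of the 1717 kept cells with such a barcode, 1473 were in S13 to S16. *Esr1* in all neurons stood at 59.9 ± 23.2 CPM (UMIs scaled to a fixed total over the cells counted; SD, n = 3) in wild-type oil libraries and at 65.8 ± 8.1 (n = 5) in wild-type tamoxifen libraries. In Esr1cKO libraries it stood at 48.7 ± 7.6 under oil and at 52.0 ± 25.3 under tamoxifen (SD, n = 4 each). Both Esr1cKO means were below the wild-type means, but the library ranges overlapped under each injection. Under oil they were 44.1 to 86.5 CPM in wild-type and 41.5 to 58.9 CPM in Esr1cKO libraries. Under tamoxifen they were 57.2 to 74.4 and 17.1 to 71.2 CPM. The tests between genotypes given below did not call *Esr1* in neurons as a whole. The study also reported no significant loss of *Esr1* transcripts. By antibody staining, however, it found the receptor protein lost in the medial preoptic area and in parts of the ventromedial and arcuate nuclei.

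All 6 genes were higher in neurons than in the other cells of the same mice, and *Ptger3* and *Trpm2* were also high in microglia. In neurons, UMIs summed per library gave 58.6 ± 25.1 CPM for *Adcyap1* (range 18.5 to 109) and 67.6 ± 24.0 for *Bdnf* (19.0 to 119; SD, n = 16 mice throughout). *Nos1* stood at 43.8 ± 12.9 CPM (19.0 to 67.8) and *Nxph4* at 20 ± 10.8 (4.75 to 47.3). *Trpm2* stood at 18.1 ± 6.3 CPM (7.34 to 29.5) and *Ptger3* at 13.2 ± 5.8 (0.462 to 21.5). The lowest 2 *Ptger3* libraries were S11 and S10, with 1 UMI each in 722 and 441 neurons, whereas the other 14 lay between 8.89 and 21.5 CPM.

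**Figure D1:**
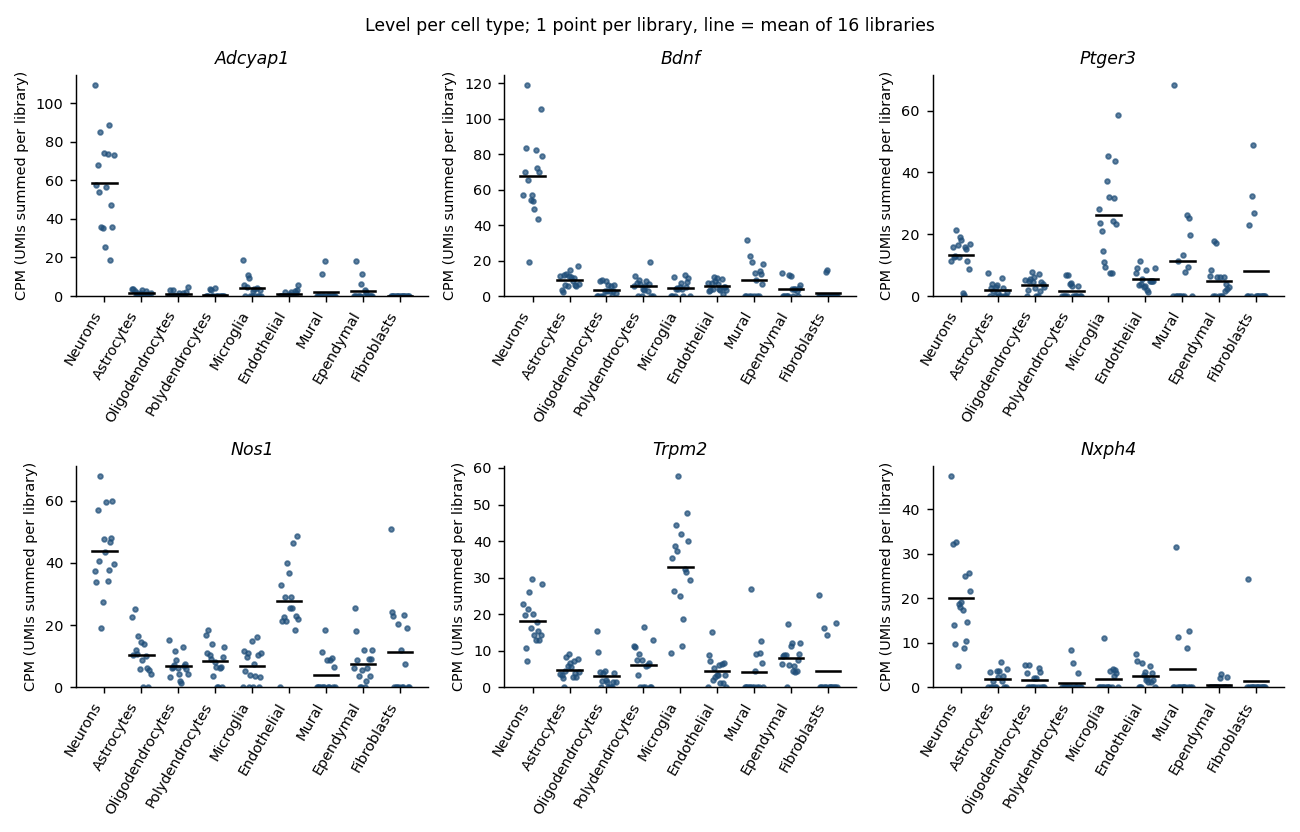
Level of each gene in 9 cell types in CPM (linear axes from 0, a separate scale for each gene), with 1 point per library and a line at the mean of 16 libraries. *Adcyap1*, *Bdnf*, *Nos1* and *Nxph4* are highest in neurons, *Nos1* has a second level in endothelial cells (27.7 CPM), and *Ptger3* and *Trpm2* are highest in microglia (26.2 and 33.0 CPM).

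Against all other cells of the same library, the log2 fold change in neurons was 5.13 for *Adcyap1* (SE 0.15), 3.5 for *Bdnf* (SE 0.14) and 3.43 for *Nxph4* (SE 0.19; edgeR quasi-likelihood test with library as a block, Benjamini-Hochberg adjusted p of 3.5e-16 or less for each). It was smaller for *Nos1* (1.84, SE 0.13, adjusted p = 3e-13), *Trpm2* (1.19, SE 0.15, adjusted p = 2.4e-08) and *Ptger3* (1.01, SE 0.15, adjusted p = 5.6e-07). All 6 were called higher. This comparison called many genes: 79.8% of 15415 passed the threshold of 0.05 and 39.0% were called higher, so a call alone was common here. *Adcyap1* had a UMI in 630 of 9136 neurons (6.90%) at a median of 1488 UMIs per neuron, and in 9 of 9231 oligodendrocytes (0.0975%) at a median of 753 UMIs. With each cell thinned to 500 UMIs the shares were 2.41% and 0.0716%. The 49711 barcodes with fewer than 100 genes held *Adcyap1* at 24.8 CPM, *Nos1* at 24.3, *Bdnf* at 22.4, *Ptger3* and *Nxph4* at 7.10 each and *Trpm2* at 6.83 CPM. Libraries S10 and S11 had no such barcodes. Whether these UMIs were free RNA or came from damaged cells was not tested.

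Microglia, the resident macrophages of the brain, held *Ptger3* at 26.2 ± 14.8 CPM and *Trpm2* at 33.0 ± 12.9 CPM (SD, n = 16). Both were higher there than in the other cells, by 2.18 (SE 0.22, adjusted p = 2.3e-12) and 2.15 (SE 0.19, adjusted p = 2.7e-14) on the log2 scale in the edgeR test. These were the 2 of 6 genes called higher in microglia, where 73.1% of all genes tested passed and 26.8% were called higher. The library ranges of microglia and neurons overlapped for both genes (*Ptger3* 7.49 to 58.7 against 0.462 to 21.5 CPM, *Trpm2* 9.35 to 57.7 against 7.34 to 29.5). Endothelial cells, which line the vessels, held *Nos1* at 27.7 ± 11.7 CPM, beside 24.3 CPM in the barcodes with fewer than 100 genes, and higher than in the other cells by 0.61 (SE 0.15, edgeR adjusted p = 0.00044), with 74.8% of all genes passing in that comparison and 29.5% called higher. Astrocytes, oligodendrocytes and polydendrocytes had all 6 genes lower (edgeR, where 72.1%, 73.8% and 61.3% of genes tested passed and 42.4%, 45.3% and 33.3% were called lower). *Adcyap1* had no UMI in 968 fibroblasts, which allows a share of up to 0.380% of cells with a UMI (95% exact interval, counting error only).

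Most of the listed genes that could be tested were higher in neurons. The lists fixed for this comparison (receptors of PACAP, receptors and processing enzymes of BDNF, the synthesis and receptors of prostaglandin E2, partners of nitric oxide synthase, other heat-gated or related channels, neurexophilins and neurexins, genes of known preoptic thermoregulatory and torpor neurons, and transmitter genes) held 54 symbols, of which 46 could be tested in neurons. Of these, 30 were higher and 11 lower than in other cells, beside the 39.0% and 40.8% of all genes. The lists were chosen with earlier results of these data known, and several name genes of neurons. These counts are therefore a description and no support. Among receptors, *Vipr2*, which binds PACAP and VIP, was higher in neurons (log2 fold change 2.51, SE 0.16), whereas *Adcyap1r1*, the PACAP-specific receptor, was lower (−0.39, SE 0.07) and was higher in astrocytes (2.77, SE 0.07). *Ntrk2*, the BDNF receptor TrkB, was likewise lower in neurons (−1.26, SE 0.07) and higher in astrocytes (2.52, SE 0.07). *Sort1* (sortilin) and *Furin*, which act on the BDNF precursor, were also lower in neurons, and *Ngfr*, its p75 receptor, was higher (1.49, SE 0.34). Of the prostaglandin E2 genes, the receptors *Ptger2* and *Ptger4* were higher in neurons (2.29, SE 0.36, and 0.65, SE 0.12), whereas *Ptgs2*, the inducible cyclooxygenase, was lower (−3.28, SE 0.28) and was higher in endothelial cells (2.37, SE 0.22). *Nos3*, the endothelial nitric oxide synthase, was lower in neurons and higher in endothelial cells (4.36, SE 0.15). *Nrxn2*, *Nrxn3*, *Nxph1* and *Nxph3* were higher in neurons, while *Nxph2* was tested and did not pass.

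Among neurons, *Adcyap1*, *Bdnf* and *Nxph4* were mainly found in glutamatergic cells. Neurons with at least 1 UMI of a vesicular glutamate transporter (*Slc17a6*, *Slc17a7* or *Slc17a8*) and none of *Gad1*, *Gad2* or *Slc32a1* were called glutamatergic (1724 neurons), and those with the reverse GABAergic (3883 neurons). *Adcyap1* stood at 132 ± 60.3 CPM in glutamatergic and 7.66 ± 7.32 CPM in GABAergic neurons (SD, n = 16). *Bdnf* stood at 158 ± 57.7 against 13.2 ± 5.0 CPM, and *Nxph4* at 42.6 ± 23.4 against 3.44 ± 1.73 CPM. Over libraries *Adcyap1* ranged from 30.5 to 261 CPM in glutamatergic and from 0 to 26.9 CPM in GABAergic neurons. For *Bdnf* the ranges were 85.2 to 293 and 3.99 to 23.5 CPM. The log2 fold changes were 3.90 (SE 0.19), 3.55 (SE 0.11) and 3.58 (SE 0.26), each with an adjusted p of 7e-15 or less in the edgeR test with library as a block. *Nos1* differed less, with 51.0 ± 16.9 against 35.5 ± 12.5 CPM, which was 0.50 on the log2 scale (SE 0.15, edgeR adjusted p = 0.024). That call was lost without library S2, S5, S8 or S12 in turn (adjusted p up to 0.064) and when 2 transmitter UMIs were required (0.39, adjusted p up to 0.207 over the alternatives). *Ptger3* stood at 15.7 ± 12.1 against 10.9 ± 5.8 CPM and *Trpm2* at 17.6 ± 9.2 against 17.8 ± 9.9 CPM. Neither passed in edgeR (0.60 with SE 0.28 and adjusted p = 0.19, and 0.12 with SE 0.23 and adjusted p = 0.85). Thus 4 of 6 genes were called higher in glutamatergic neurons, beside 10.2% of 10131 genes called in either direction and 5.73% called higher.

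Counted the other way, 51.7% of the 630 neurons with an *Adcyap1* UMI were glutamatergic by this rule, 9.21% GABAergic, 8.25% had UMIs of both classes and 30.8% of neither. The shares were alike for *Bdnf* (51.4% of 700 neurons glutamatergic) and *Nxph4* (57.8% of 287). The 293 *Trpm2* neurons were 26.3% glutamatergic and 47.8% GABAergic, beside 18.9% and 42.5% of all neurons. In the same comparison the PACAP receptors *Adcyap1r1* (−0.44, SE 0.11) and *Vipr2* (−2.58, SE 0.24) were lower in glutamatergic than in GABAergic neurons. *Nrxn3* was lower (−1.98, SE 0.07) and *Sort1* higher (0.74, SE 0.12). *Nos1ap*, an adaptor of the nitric oxide synthase, was lower (−0.34, SE 0.09), and so were the peptides *Gal*, *Nts* and *Vip*. The 3 prostaglandin E2 genes and the 5 channels of the TRP list that could be tested did not pass.

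The neurons fell into 23 clusters, each called here by its leading gene. The clusters were not assigned to regions of the tissue block, so none is taken as preoptic or hypothalamic. The 6 genes were left out of the genes used for clustering. Neurons of the *Foxb1*-led cluster (213 neurons in 14 libraries, 82.2% glutamatergic) held 4 of the 6 genes at raised levels. *Adcyap1* stood there at 345 ± 156 CPM and *Bdnf* at 392 ± 152 CPM (SD, n = 14 libraries), with UMIs of the former in 51.2% of neurons (95% exact interval 44.3 to 58.1) and of the latter in 50.2% (43.3 to 57.1). *Nxph4* stood at 129 ± 66.0 CPM with UMIs in 32.4% of neurons, and *Ptger3* at 37.0 ± 25.5 CPM with UMIs in 11.3%. Against the other neurons of the same libraries, the log2 fold changes were 2.50 (SE 0.19) for *Adcyap1*, 2.29 (SE 0.18) for *Bdnf*, 2.85 (SE 0.26) for *Nxph4* and 1.55 (SE 0.39, adjusted p = 0.00066) for *Ptger3* (edgeR, adjusted over all genes and clusters). In this cluster 21.8% of 10490 genes passed and 4.50% were called higher. *Nos1* (0.26, SE 0.29, edgeR adjusted p = 0.55) and *Trpm2* (0.79, SE 0.40, adjusted p = 0.14) did not. The other leading genes of the cluster included *Rprm* and *Pvalb*. *Foxb1* is known from the mammillary region of the posterior hypothalamus, and no source here places these neurons in the preoptic area.

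The *Fezf1*-led cluster (497 neurons in 16 libraries, 64.4% glutamatergic, with *Tac1* and *Cbln1* among its leading genes) also held 4 of the genes at raised levels. *Adcyap1* stood at 185 ± 78.3 CPM (log2 fold change 1.90, SE 0.13) with UMIs in 32.0% of neurons, and this cluster held 28.3% of all neuronal *Adcyap1* UMIs. *Bdnf* stood at 130 ± 69.3 CPM (1.09, SE 0.15), *Nos1* at 70.4 ± 35.8 CPM (0.73, SE 0.18, adjusted p = 0.00063) and *Nxph4* at 37.9 ± 23.0 CPM (1.06, SE 0.25, adjusted p = 0.00065; SD, n = 16). Here 15.4% of genes tested passed and 6.33% were higher.

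In the *Pmch*-led cluster, *Adcyap1* stood at 488 ± 225 CPM (log2 fold change 2.61, SE 0.25), *Nxph4* at 173 ± 143 CPM (2.88, SE 0.30) and *Bdnf* at 326 ± 416 CPM (1.56, SE 0.27; SD, n = 15 libraries). These neurons were shallow, with a median of 360 UMIs, and 15.3% of them had an *Adcyap1* UMI. In this cluster 48.2% of genes tested passed and 6.67% were called higher. The *Bdnf* call there was lost with DESeq2 (log2 fold change 0.89, adjusted p = 0.097). In the *Crym*-led cluster (330 neurons, 10 libraries, 25.5% of genes passing and 6.57% higher), *Bdnf* was higher (1.58, SE 0.20) and so was *Adcyap1* in edgeR (1.4, SE 0.23), but DESeq2 put *Adcyap1* at −0.0088. *Adcyap1* had UMIs in 6 of those 10 libraries, from 0 to 450 CPM. The *Gm5741*-led cluster had *Nxph4* higher (1.76, SE 0.30, UMIs in 47 of 335 neurons), beside 9.98% of genes passing and 1.63% higher.

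Other clusters held a single gene or a pair. *Bdnf* was higher in the *Tac2*-led cluster (361 ± 371 CPM, SD, n = 13 libraries, log2 fold change 2.31, SE 0.22), with UMIs in 52.3% of 107 neurons (95% exact interval 42.5 to 62.1) and with no *Adcyap1* UMI in any of them. Here 20.1% of genes passed and 2.58% were higher, and the spread between libraries is taken up below. This comparison pooled the genotypes, and the higher level was that of Esr1cKO mice. In wild-type libraries *Bdnf* stood at 41.2 ± 52.4 CPM in the cluster and 61.1 ± 14.6 CPM in the other neurons (SD, n = 6 and 8). In Esr1cKO libraries it stood at 635 ± 290 and 57.2 ± 21.6 CPM (SD, n = 7 and 8). *Nos1* was higher in the *Oxt*-led cluster (90.3 ± 75.9 CPM, SD, n = 13, log2 fold change 0.89, SE 0.27, edgeR adjusted p = 0.0061, with 22.8% of genes passing and 3.44% higher), where 18.3% of 153 neurons had a UMI. That call was lost without library S12 (adjusted p = 0.108) and with a minimum of 10 neurons per library (0.68). *Trpm2* was higher in the *Shox2*-led cluster (44.9 ± 47.2 CPM, SD, n = 11, log2 fold change 1.2, SE 0.43, edgeR adjusted p = 0.026, with 19.4% of genes passing and 3.26% higher), a call lost without library S9, S12, S14 or S16 (adjusted p up to 0.093). *Bdnf* was called higher there too (0.83, SE 0.28, adjusted p = 0.015), but not with DESeq2 (0.92), without S10 and S11 (0.73) or without S2, S9, S11 or S13 in turn (adjusted p up to 0.163).

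**Figure D2:**
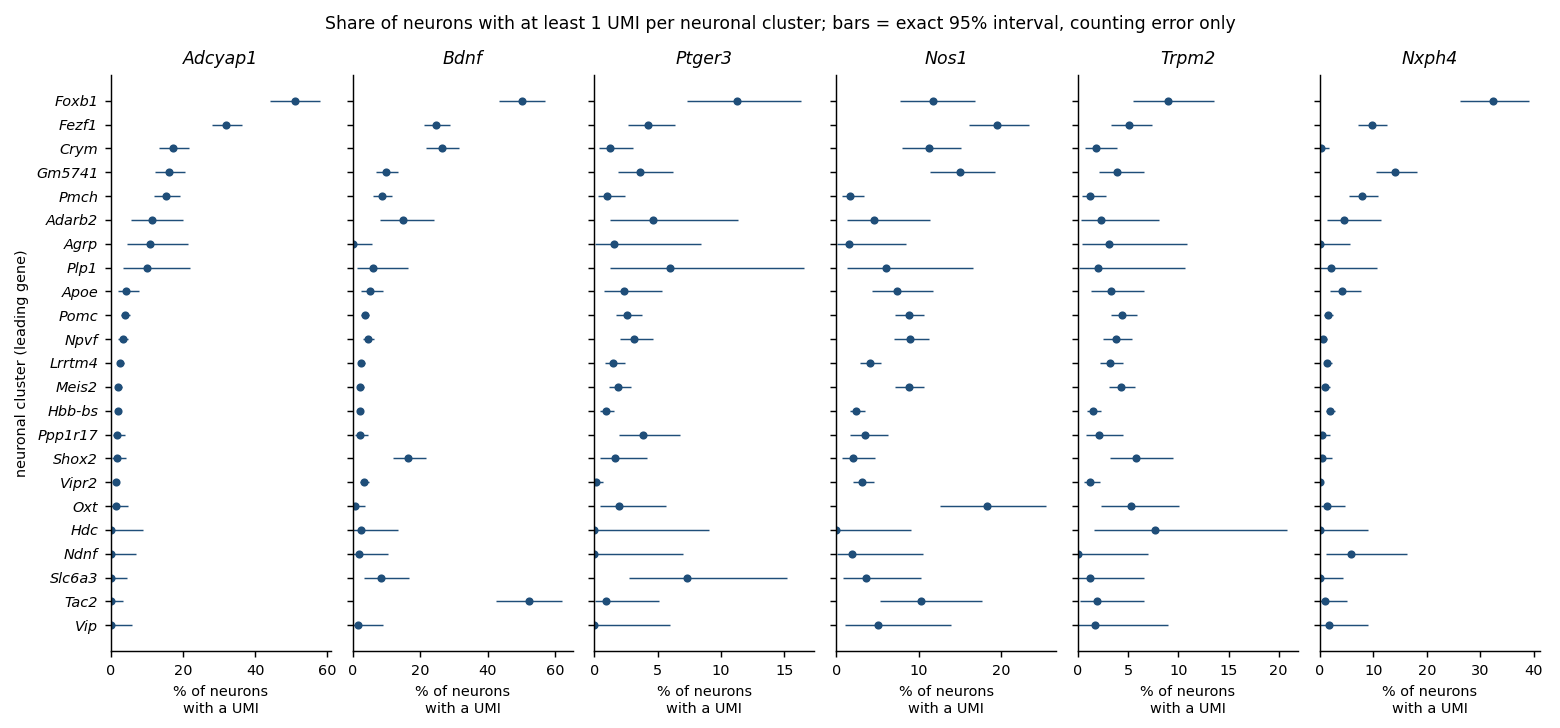
Percent of neurons with at least 1 UMI of each gene in the 23 neuronal clusters, named by leading gene and ordered by *Adcyap1*, with exact 95% intervals that cover counting error only (linear axes from 0, a separate scale for each gene). The *Foxb1*-led cluster stands at 51.2% for *Adcyap1* and 50.2% for *Bdnf*, and the *Tac2*-led cluster at 52.3% for *Bdnf* with no *Adcyap1*. In the *Tac2*-led cluster *Bdnf* had a UMI in 6 of 34 wild-type and 50 of 73 Esr1cKO neurons.

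Over all clusters, *Adcyap1* was called higher in 4 and lower in 14 of 23, *Bdnf* in 6 and 14 of 23, *Nxph4* in 4 and 9 of 20, and *Nos1* in 2 and 7 of 23. *Ptger3* and *Trpm2* were each called higher in 1 cluster and lower in none (11 and 16 clusters tested). Over all clusters and genes 24.6% of tests passed, 4.78% as higher and 19.9% as lower. All of these calls pooled the genotypes and injections.

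*Adcyap1* and *Bdnf* were found in the same neurons more often than their separate shares give. Both had UMIs in 213 neurons, where 69.6 were expected from the share of each gene within the same library and the same depth quartile, a ratio of 3.06, and the observed number was above the expected one in 16 of 16 libraries. Within glutamatergic neurons the ratio was 1.65 (136 neurons against 82.4, above in 15 of 16 libraries), and outside the *Foxb1*-led cluster it was 3.05 (148 against 48.6). Of the 213 neurons, 65 (30.5%) were in the *Foxb1*-led cluster, 53 (24.9%) in the *Fezf1*-led cluster and 25 (11.7%) in the *Crym*-led cluster. *Nxph4* joined both, in 83 neurons with *Adcyap1* (28.2 expected, ratio 2.94) and 67 with *Bdnf* (29.7 expected, ratio 2.25). Within glutamatergic neurons these ratios were 1.39 and 1.2, and 36 of the 67 neurons (53.7%) were in the *Foxb1*-led cluster. *Ptger3* was found with *Adcyap1* in 37 neurons (18.9 expected, ratio 1.95) and with *Bdnf* in 36 (20.8 expected, ratio 1.73). *Trpm2* was found with *Bdnf* in 23 neurons where 31.5 were expected (ratio 0.73), and with *Nxph4* in 25 where 13.4 were expected (ratio 1.86). These ratios describe the neurons of 16 libraries and carry no test. The upstream windows printed above are those of the 2 genes found together most often, and were printed for that reason. The *Bdnf* window shown is the only 1 for that gene with the core. The core marked there also stood in the windows of *Nos1* and *Trpm2*, and its part in joint detection was not tested.

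**Figure D3:**
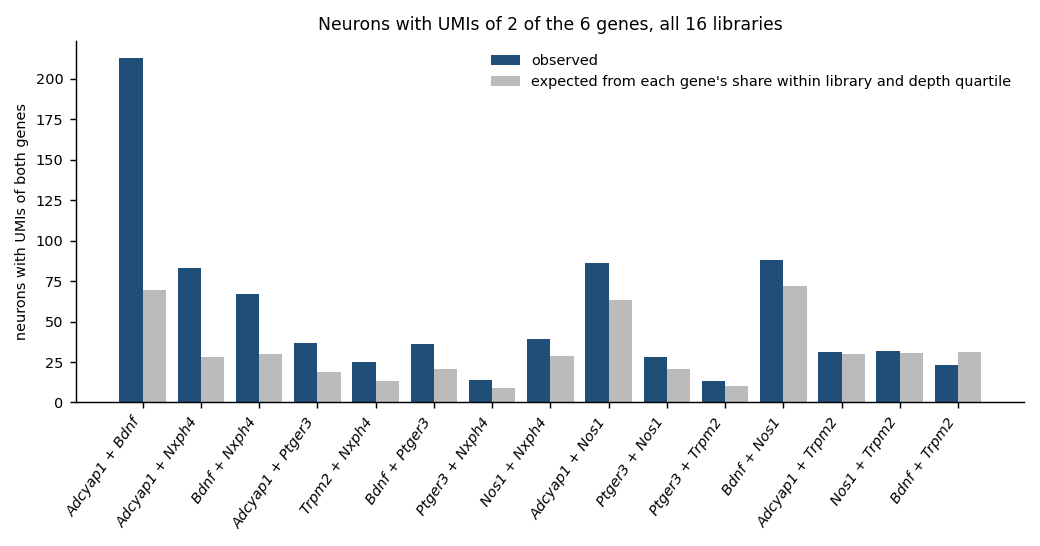
Neurons with UMIs of both genes of each pair (blue bars) beside the number expected from the share of each gene within library and depth quartile (grey bars), on a linear axis from 0, ordered by the ratio of the bars. *Adcyap1* with *Bdnf* shows 213 against 69.6, and *Bdnf* with *Trpm2* is the pair with the lowest ratio, 23 against 31.5.

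Other genes of thermoregulatory and torpor neurons ranged from *Qrfp*, in 16 neurons, to *Gal*, the peptide galanin, in 1263. *Qrfp*, the peptide of neurons that induce a torpor-like state, was found with *Adcyap1* in 3 neurons (1.68 expected). *Opn5*, an opsin of warm-sensitive preoptic neurons, had UMIs in 35 neurons and *Lepr*, the leptin receptor, in 118, of which 4 and 13 had *Adcyap1* (3.83 and 11.5 expected). *Gal* was found with *Adcyap1* in 84 neurons (116.7 expected), *Vip* in 2 (7.53 expected) and *Brs3* in 1 (5.13 expected). For *Nts*, *Tacr1* and *Tacr3* the numbers with *Adcyap1* were 47, 27 and 43 (42.5, 22.2 and 44.8 expected). *Esr1* was found in 60 *Adcyap1* neurons (72.7 expected, ratio 0.825) and in 98 *Bdnf* neurons (80.4 expected, ratio 1.22). *Vipr1*, a receptor of VIP and PACAP, was found with *Bdnf* in 14 of its 44 neurons (4.51 expected, ratio 3.10). The other PACAP receptors, *Adcyap1r1* and *Vipr2*, were found with *Bdnf* in 98 and 22 neurons (118 and 27.3 expected).

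Across 22 clusters with at least 50 neurons, the genes whose levels ran most closely with those of the 6 were named by Pearson's r on log2(CPM + 10) over 10541 genes, as a description with no test. For *Adcyap1* these were *Hipk4* (r = 0.80), *Adra2a* (0.78) and *Lsm11* (0.75). For *Bdnf* they were *Nefh* (0.76), *Thsd7a* (0.75) and *Zyg11b* (0.74), for *Nxph4* *Slc20a2* (0.74) and for *Nos1* *Gpr101* (0.73). *Ptger3* was closest to *Slc36a1* (0.85) and *Trpm2* to *Mgat5b* (0.79). The points share libraries and differ in depth, and clusters of few UMIs enter with the same weight as deep ones.

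Tamoxifen was compared with oil in each genotype, and the genotypes under each injection, over UMIs summed per mouse. No member that could be tested was called in any of these contrasts. All 6 could be tested in neurons, 4 in glutamatergic neurons (*Adcyap1*, *Bdnf*, *Nos1* and *Nxph4*), 3 in GABAergic neurons (*Nos1*, *Ptger3* and *Trpm2*), 2 in microglia (*Ptger3* and *Trpm2*) and 1 in endothelial cells (*Nos1*). The edgeR tests called 0 of 12392 genes in neurons for tamoxifen in wild-type mice (percent called 0, with 417 genes at an unadjusted p under 0.05 and 1 call by DESeq2) and 0 for tamoxifen in Esr1cKO mice (381 genes, 0 by DESeq2). They called 0 for the interaction (632 genes, 0 by DESeq2) and 0 for genotype under oil (576 genes, 1 by DESeq2). Genotype under tamoxifen gave 1 call, *Nov*, which was 0.00807% of genes tested (434 genes unadjusted, 3 by DESeq2). In glutamatergic neurons the same 5 contrasts gave 0, 0, 0, 0 and 1 call among 7291 genes, again *Nov* (0.0137%), with 234 to 326 genes at an unadjusted p under 0.05. In GABAergic neurons they gave 0 among 10170 genes, with 345 to 553 genes at an unadjusted p under 0.05 and 0 calls by DESeq2. Of 64 tests of a member in the 4 pairwise contrasts, 5 had an unadjusted p under 0.05 and 0 passed the adjustment. In sums over all neurons, fewer neurons of a type and less RNA per neuron cannot be told apart. That each mouse was a separate animal follows from the methods, by which 4 mice were taken on each of 4 days with the groups side by side. The sources used here do not tie a library to its day. Successive fours of library numbers were tried as a block, under which no member was called in all neurons in the 5 contrasts, or in glutamatergic neurons for tamoxifen in wild-type mice.

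**Figure D4:**
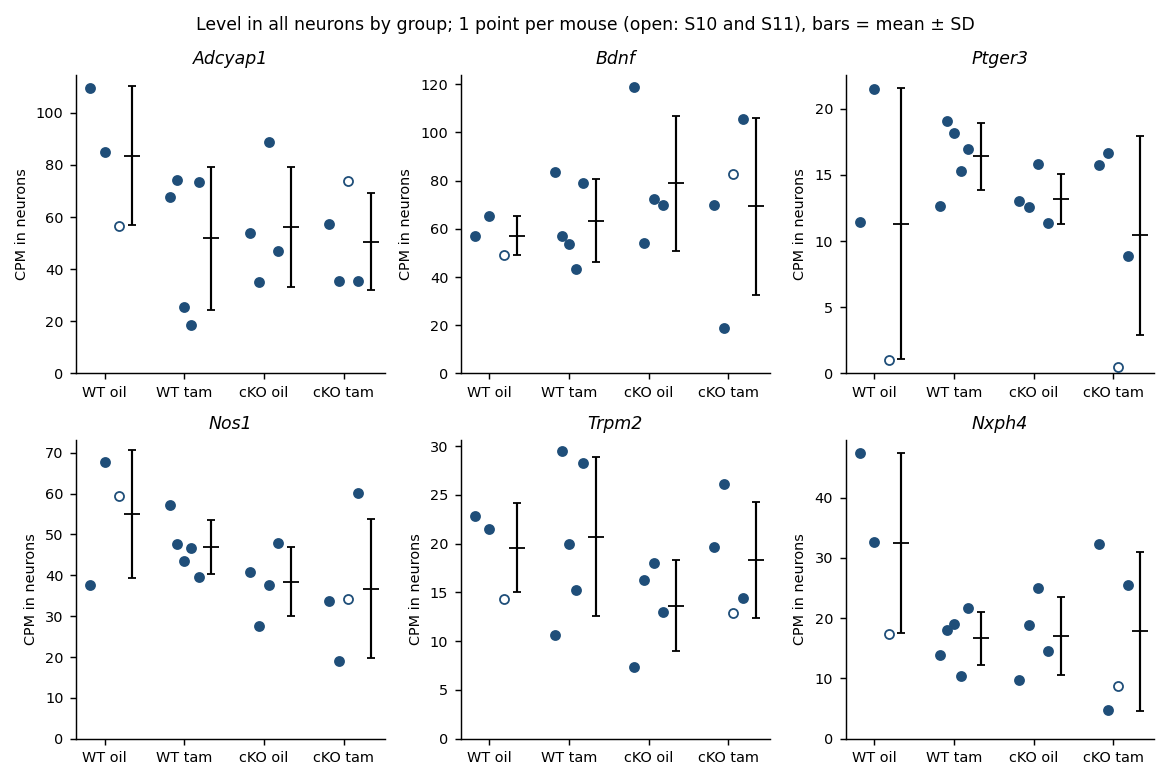
Level of each gene in all neurons by group in CPM (linear axes from 0, a separate scale for each gene), with 1 point per mouse, open points for libraries S10 and S11, and bars at the mean ± SD beside the points. The groups overlap for all 6 genes, and the lowest *Ptger3* points, 0.462 and 1.03 CPM, are the open ones.

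The values of *Nxph4* and *Adcyap1* in wild-type mice are given by library, since both had an unadjusted p under 0.05 for tamoxifen in glutamatergic neurons. In glutamatergic neurons *Adcyap1* stood at 190, 194 and 159 CPM in oil libraries S1, S5 and S10, and at 166, 92.3, 30.5, 70.4 and 117 CPM in tamoxifen libraries S3, S8, S9, S13 and S16. The oil libraries had a mean of 181 ± 19.4 CPM (SD, n = 3) and the tamoxifen libraries 95.3 ± 50.8 CPM (n = 5), with 1 tamoxifen library above the lowest oil library. The log2 fold change was −0.87 (SE 0.36, unadjusted p = 0.025, edgeR adjusted p = 1). *Nxph4* in the same neurons stood at 83.4, 63.8 and 51.2 CPM in S1, S5 and S10, and at 47.5, 28.4, 34.4, 23.5 and 38.1 CPM in S3, S8, S9, S13 and S16. The oil libraries had a mean of 66.1 ± 16.2 CPM and the tamoxifen libraries 34.4 ± 9.2 CPM (SD), with a log2 fold change of −0.90 (SE 0.42, unadjusted p = 0.043, edgeR adjusted p = 1). In this contrast 274 of 7291 genes (3.76%) had an unadjusted edgeR p under 0.05. In all neurons *Nxph4* stood at 32.5 ± 15 CPM under oil and 16.6 ± 4.4 CPM under tamoxifen (−0.94, SE 0.43, edgeR unadjusted p = 0.045). The *Foxb1*-led cluster, where *Adcyap1*, *Bdnf* and *Nxph4* were high, made up 4.27 ± 3.47% of neurons in wild-type oil libraries (0.907 to 7.83) and 1.48 ± 1.74% in wild-type tamoxifen libraries (0.172 to 4.53), and its part in these values was not tested. Within the cluster *Adcyap1* stood at 336 ± 97.7 CPM under oil and 307 ± 139 CPM under tamoxifen, and *Nxph4* at 153 ± 36.3 and 74.4 ± 62.4 CPM (SD, n = 3 and 4 libraries). Outside that cluster *Nxph4* stood at 21.8 ± 6.6 against 14.6 ± 6.5 CPM, and *Adcyap1* at 67.8 ± 18.8 against 45.7 ± 25.6 CPM (SD). In wild-type mice the *Fezf1*-led cluster made up 8.1 ± 4.8% of neurons under oil and 4.8 ± 1.9% under tamoxifen. The *Pmch*-led made up 7.4 ± 3.9% and 5.5 ± 5.0%, the *Crym*-led 0.95 ± 1.2% and 4.2 ± 5.7%, and the *Gm5741*-led 2.3 ± 1.6% and 4.6 ± 3.6%. In the *Fezf1*-led cluster *Adcyap1* stood at 235 ± 34.9 and 146 ± 86.9 CPM (edgeR unadjusted p = 0.036, not called). The part of these clusters was not tested either. In Esr1cKO mice the tamoxifen log2 fold change in glutamatergic neurons was −0.22 (SE 0.37) for *Adcyap1* and 0.52 (SE 0.44) for *Nxph4*. The interaction did not pass for either (unadjusted p = 0.22 and 0.029, edgeR adjusted p = 1 for both). *Ptger3* in microglia had a tamoxifen log2 fold change of 1.48 in wild-type mice (SE 0.57, edgeR unadjusted p = 0.017, adjusted p = 1) and an interaction of −2.41 (SE 0.77, unadjusted p = 0.0054, adjusted p = 0.79), also not called. The wild-type oil libraries held 8 microglial *Ptger3* UMIs in all, and S10 and S11, with 2 UMIs each, were the lowest of the 16 libraries (7.51 and 7.49 CPM).

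For the other genes in all neurons the tamoxifen log2 fold change in wild-type mice was 0.14 for *Bdnf* (SE 0.36), −0.26 for *Nos1* (SE 0.26), 0.07 for *Trpm2* (SE 0.35) and 0.49 for *Ptger3* (SE 0.63). The *Ptger3* value rests on library S10, which had 1 UMI, and without S10 and S11 it was −0.081. In Esr1cKO mice the 6 values lay between −0.60 (*Ptger3*, SE 0.63) and 0.31 (*Trpm2*, SE 0.35).

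After these results were seen, the same contrasts were run within the 8 clusters in which a member was high, and the values of *Bdnf* in the *Tac2*-led cluster are given here as a description, since the cluster was taken for them. *Tac2* encodes neurokinin B and *Pdyn*, also among the leading genes of this cluster, prodynorphin. *Bdnf* had no UMI in the wild-type oil libraries S1, S5 and S10 (9 neurons with 22574 UMIs in all, where 3 counts over the group, the limit taken for a count of 0, make 133 CPM). In wild-type tamoxifen libraries it stood at 37.1 CPM in S3, 89.7 in S8 and 120 in S13 (22 neurons, 6 *Bdnf* UMIs). In Esr1cKO oil libraries it stood at 1178 CPM in S4, 734 in S7, 587 in S12 and 705 in S14 (28 neurons, 103 *Bdnf* UMIs). In Esr1cKO tamoxifen libraries it stood at 294 CPM in S2, 578 in S11 and 367 in S15 (44 neurons, 96 *Bdnf* UMIs). The wild-type oil libraries held 3 neurons of the cluster each, and all 15 *Bdnf* UMIs of S14 came from 1 neuron. Libraries in which the cluster had fewer than 3 neurons were left out of these values. They were S9 and S16, with no *Bdnf* UMI in 3 neurons, and S6, with 1 UMI in 1 neuron. Of 678 genes tested in this cluster, edgeR called 35 (5.16%) between genotypes over both injections. Most of the 35, *Bdnf* among them, were higher in Esr1cKO mice, and 157 of the 678 genes had an unadjusted edgeR p under 0.05.

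**Figure D5:**
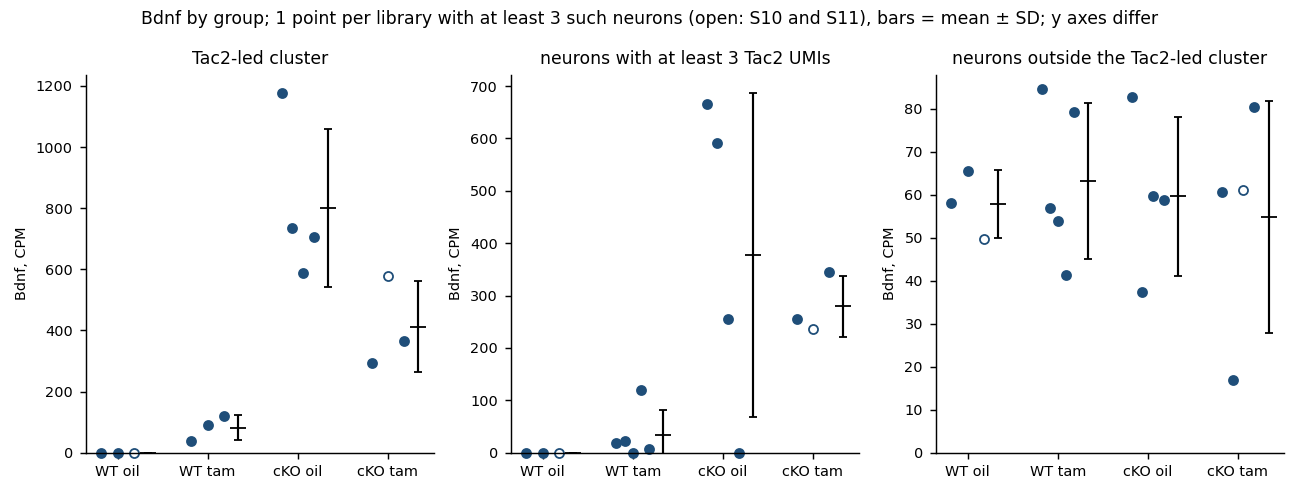
*Bdnf* in CPM by group in the *Tac2*-led cluster (left), in neurons with at least 3 *Tac2* UMIs (middle) and in all other neurons (right), with 1 point per library with at least 3 such neurons, open points for S10 and S11, and bars at the mean ± SD; the linear axes start at 0 and differ in scale. In the cluster the means are 0 CPM in wild-type oil, 82.4 in wild-type tamoxifen, 801 in Esr1cKO oil and 413 in Esr1cKO tamoxifen libraries. The genotypes overlap in the middle and right panels.

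Over both injections the means were 41.2 ± 52.4 CPM in wild-type (SD, n = 6) and 635 ± 290 CPM in Esr1cKO libraries (SD, n = 7). *Bdnf* entered the edgeR test through the Esr1cKO libraries, which held 199 of its UMIs beside 6 in wild-type libraries, so its call adds nothing to the values above. The test called it higher in Esr1cKO mice (edgeR adjusted p = 0.0008 over 11789 tests of a gene in a cluster, of which 37, or 0.314%, were called), and 35 of 678 genes (5.16%) were called in this cluster. Only 9 tests of a member in a cluster could be made in this contrast, and this was the 1 called. The call held in each alternative tried: DESeq2, another scaling, no filter, without S10 and S11, without shared barcodes, and a choice of neurons by 3 or more *Tac2* UMIs rather than by cluster (adjusted p from 5.35e-09 to 0.0044), and each library left out (adjusted p up to 0.005). These alternatives draw on the same libraries, for a cluster taken for its *Bdnf* values, so they add no support either. Removing shared barcodes left the counts of the cluster unchanged, since none of its neurons carried one. Among neurons chosen by *Tac2* UMIs the genotypes overlapped, since S14 had no *Bdnf* UMI in 7 neurons and S13 stood at 119 CPM. That choice took 117 wild-type and 152 Esr1cKO neurons, with *Pdyn* at 193 ± 153 and 725 ± 289 CPM (SD, n = 8 and 7 libraries). S16 gave 38 of the wild-type neurons but had 1 neuron in the cluster. *Tac2* differed between the genotypes, so a fixed count of its UMIs need not pick like neurons in both. The contrasts within 1 injection called few genes in the clusters together (1 under oil, 0.00848%, and 12 under tamoxifen, 0.102%). All of these calls were in the *Tac2*-led cluster, where they made up 0.147% and 1.77% of the 678 genes tested. Under oil alone the edgeR adjusted p of *Bdnf* was 0.060. Pooled *Bdnf* in Esr1cKO oil libraries was 6.18-fold the limit that a count of 3 over the wild-type oil libraries gives. That limit covers counting error only, and not the spread between neurons or mice. Under tamoxifen alone the edgeR adjusted p of *Bdnf* was 0.161, with a log2 fold change of 2.32 (SE 0.55) and a pooled ratio of 5.18. With neurons chosen by 3 or more *Tac2* UMIs the tamoxifen contrast passed (3.13, edgeR adjusted p = 0.0436). Tamoxifen against oil within Esr1cKO mice gave −0.98 (SE 0.32, unadjusted p = 0.0059, edgeR adjusted p = 1). In the *Foxb1*-, *Fezf1*- and *Crym*-led clusters the *Bdnf* log2 fold change between genotypes was −0.11 (SE 0.30), 0.37 (SE 0.33) and 0.18 (SE 0.49), and none was called.

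Other values of these neurons are given beside those of *Bdnf*. *Bdnf* had a UMI in 6 of 34 wild-type neurons and 50 of 73 Esr1cKO neurons of the cluster, whose median depths were 2936 and 4898 UMIs. With each neuron thinned to 500 UMIs the shares with a *Bdnf* UMI were 2.63% and 22.6%, with 2 wild-type neurons left out. *Tac2* itself stood at 6144 ± 1749 CPM in wild-type and 19716 ± 5654 CPM in Esr1cKO libraries, and *Nov*, which encodes a secreted matrix protein, at 72.1 ± 134 and 1470 ± 474 CPM (SD, n = 6 and 7). Both were among the 35 genes called and are leading genes of the cluster, so membership of the cluster was not independent of them. *Vgf*, *Pcsk1*, *Chgb* and *Scg5*, picked from the called genes after their values were seen, were higher as well (log2 fold changes 2.86, 2.39, 1.98 and 1.31). *Pdyn* stood at 503 ± 261 and 1174 ± 431 CPM and was not called. *Esr1*, the targeted gene, stood at 441 ± 201 CPM in wild-type and 224 ± 152 CPM in Esr1cKO libraries, with overlapping ranges (212 to 706 and 90.4 to 517 CPM). *Ntrk2*, the receptor of BDNF, was not called and its ranges overlapped (66.0 ± 78.6 and 208 ± 69.9 CPM). No neuron of the cluster carried a barcode found in more than 1 library. The part of depth and of cluster membership in the *Bdnf* difference was not tested beyond these values.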

How the data were processed

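Drop-seq libraries of 16 mice were deposited as UMI counts per gene and barcode, which the authors made from reads aligned to mm10 with STAR 2.6. The labels name Seurat 3.6.1 downstream, but the study gives 3.6.1 as the version of R and another version for Seurat. Barcodes with over 200 and under 4000 genes and under 15% mitochondrial counts were kept, clustered with Seurat 5.3.0 (CCA integration) and named from fixed markers. Scrublet (scanpy 1.11.5) called 494 cells (0.887%) doublets; they were kept, and left out in an alternative. UMIs were summed per library and cell class and tested with edgeR 4.0.16 (quasi-likelihood, TMM, filterByExpr, Benjamini-Hochberg threshold 0.05), with library as a block for comparisons within mice and 1 fit of 4 groups otherwise. DESeq2 1.42.0, other scalings, filters and each library left out were alternatives. The scripts were tested on simulated data. The members and lists were chosen with earlier results of these data known; tests by group within clusters, and *Bdnf* in the *Tac2*-led cluster, were chosen after seeing the data. Intervals cover counting error only. Genes named were the 6 members, the fixed lists, and the genes most like each member; *Nov*, *Vgf*, *Pcsk1*, *Chgb*, *Scg5*, *Pdyn* and leading genes of clusters were named after their values were seen.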

Additional observations from a re-analysis of the deposited data

Results flagged for a closer look

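*Adcyap1* in glutamatergic neurons of the Esr1cKO oil mouse S12 stood at 212.4 CPM, far from the other 3 mice of that group, which stood at 93.3 (S4), 108 (S7) and 112 CPM (S14). Of 36 groups of mice examined this was the 1 in which a mouse stood apart by Dixon's test, and chance gives about 1 in 20.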

How the results depend on the processing

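The calls of the 6 genes in neurons against other cells, of *Adcyap1*, *Bdnf* and *Nxph4* in glutamatergic neurons, and those in the *Foxb1*-, *Fezf1*- and *Gm5741*-led clusters kept direction and call under all alternatives run. *Nos1* in glutamatergic neurons lost its call with oil libraries alone (0.55), mitochondrial share under 5% (0.43), shared barcodes removed (0.42) and 2 transmitter UMIs (0.39; one library left out 0.43 to 0.57), and *Trpm2* ranged from −0.00050 to 0.25 with one library left out (0.39 with 2 transmitter UMIs). In clusters, DESeq2 gave 0.89 for *Bdnf* (*Pmch*), −0.0088 for *Adcyap1* (*Crym*) and 0.92 for *Bdnf* (*Shox2*; 0.78 unfiltered, 0.73 without S10 and S11, 0.58 to 0.97 with one library left out). With one library left out, *Trpm2* (*Shox2*) ranged from 1.03 to 1.34 and *Nos1* (*Oxt*) from 0.62 to 1.05 (0.68 with 10 neurons); other settings reached 1.52 and 1.10. DESeq2 called 1 gene for tamoxifen in wild type, 1 for genotype under oil (1 unfiltered) and 3 for genotype under tamoxifen (2 unfiltered; 1 to 2 with one library left out). Without S10 and S11, wild-type tamoxifen gave −0.081 for *Ptger3* and −0.094 for *Trpm2*, Esr1cKO tamoxifen 0.00832 for *Nos1* (0.046 at mitochondrial share under 5%), the interaction 0.062 for *Ptger3*, genotype under oil −0.32 for *Ptger3*, and genotype under tamoxifen −0.21 for *Adcyap1* (−0.018 with successive fours of libraries as a block). *Bdnf* in wild-type glutamatergic neurons, 0.0080, became −0.00244 (DESeq2), −0.00165 (its size factors), −0.14 (block), −0.11 (mitochondrial share) and −0.16 (shared barcodes). With one library left out, wild-type tamoxifen values ranged from −0.058 to 1.55 (*Ptger3*) and −0.10 to 0.25 (*Trpm2*), and in glutamatergic neurons −0.22 to 0.25 (*Bdnf*) and −0.66 to 0.25 (*Nos1*). Esr1cKO tamoxifen values ranged from −0.41 to 0.20 (*Adcyap1*), −0.37 to 0.15 (*Bdnf*), −0.35 to 0.099 (*Nos1*) and −0.34 to 0.42 (*Nxph4*), and interactions from −0.51 to 0.0075 (*Bdnf*) and −0.091 to 0.41 (*Nos1*). Genotype values ranged under oil from −0.30 to 1.30 (*Ptger3*) and under tamoxifen from −0.22 to 0.24 (*Adcyap1*), −0.0037 to 0.47 (*Bdnf*) and −0.23 to 0.54 (*Nxph4*). *Bdnf* in the *Tac2*-led cluster under oil passed unfiltered (7.73) and without S10 and S11 (7.68), and with one library left out ranged from 7.51 to 7.94, passing without S8, S11 or S15. Its lowest value was 4.93 (DESeq2), and its adjusted p reached 0.201 with neurons chosen by *Tac2* UMIs. Under tamoxifen it passed with that choice (3.13). The wild-type oil libraries held 0 *Bdnf* UMIs in 9 neurons of this cluster, so the size of its oil values was not measured. The cluster was taken for its *Bdnf* values, so these passes and ranges add no support. All values of this section are log2 fold changes, and the cause of each change was not tested. Leaving out libraries was not run for group contrasts in other cell types. No paired analysis was possible because each library number belongs to 1 mouse of 1 group, and successive fours of library numbers were run as a block instead.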
